A study of Mus musculus with 12 samples.

Results

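Mitochondrial biogenesis in muscle is governed by a small set of transcriptional regulators, and 10 of their genes were followed here in mouse gastrocnemius, the main calf muscle, by RNA sequencing. They are the coactivator genes Ppargc1a, Ppargc1b and Pprc1, the nuclear receptor genes Ppard, Ppara, Esrra and Esrrg, and the genes of the transcription factors Nrf1, Gabpa and Tfam. They were listed by gene symbol, with earlier results of these data known, and each was found by its Ensembl identifier. The 10 are part of 43432 gene identifiers in the count table, and all 10 were among the 14486 genes that passed the filter on low counts.

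All muscles came from male mice, and 4 groups of 3 libraries each were compared. Exercised MKO and exercised WT mice ran for 90 min at 60% of top speed before sampling, and sedentary MKO and sedentary WT mice are given as sedentary in the labels. MKO stands for cFeimin MKO, in which the cellular form of Feimin was deleted, and the WT littermates were fl/fl with the gene intact. The labels name no driver of the deletion, no age and no interval between the run and sampling. The labels call each library a separate sample but tie none to an animal, so p-values measure the spread between these libraries, which may in part be technical.

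As background, the PGC-1 proteins do not bind DNA themselves. They dock on transcription factors such as the ERR and PPAR receptors, NRF1 and GABP, and raise transcription of genes for oxidative phosphorylation, fatty acid oxidation and mitochondrial DNA upkeep. In muscle, contraction is known to raise Ppargc1a through calcium, AMPK and CREB signalling, and PGC-1α is known for its part in endurance training and slow, oxidative fibres.

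The libraries were of like depth, with totals of 14324010 to 14563501 counts. All 12 skeletal muscle markers were well above 3 counts in all libraries, with a summed level of 121640 to 176460 CPM (counts scaled to library size, here with TMM factors). The gene taken as Feimin, B230219D22Rik (from general knowledge, since the labels do not give it), lay at 3.52 to 4.59 CPM in exercised MKO, against 21.6 to 29.9 CPM in exercised WT, and at 3.63 to 6.13 CPM in sedentary MKO, against 21.7 to 24.3 CPM in sedentary WT. The genotype labels and this gene therefore did not conflict in any library. Replicate 3 of sedentary MKO, replicate 5 of exercised WT and replicate 4 of exercised MKO stood apart from the rest of their groups. In the first of these the summed level of 10 slow-fibre genes was 130 CPM, against 609 to 1925 CPM in the other libraries. In replicate 5 of exercised WT the summed level of 9 adipocyte genes was 589 CPM, against 365 to 459 CPM elsewhere, and 1 gene, Plin4, made up 441 CPM of it. Without Plin4 the sum was 148 CPM there, inside the 106 to 231 CPM of the other libraries. That sum did not overlap between states, at 106 to 148 CPM in exercised and 151 to 231 CPM in sedentary libraries. Of those 9 genes, 4 were above 3 counts in every library, Plin1, Lep and Retn were at 0 in 6, 8 and 6 libraries, and Adipoq had 2 to 50 counts. Replicate 4 of exercised MKO had -45.8 on the second principal component of log2 CPM, against -15.6 to 27.5 for the rest. Other libraries departed from their groups in other measures. Replicate 2 of exercised MKO had a summed macrophage level of 62.7 CPM, against 146 and 149 CPM in its group, and was not counted among those set apart.

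Per kilobase of annotated exon, the 10 genes were expressed over a wide range. Averaged over the 12 libraries, the level was 18.0 CPM per kb for Esrra, 9.34 for Ppargc1a, 5.21 for Ppard, 5.15 for Tfam, 2.54 for Gabpa, 2.23 for Pprc1, 1.63 for Esrrg, 0.953 for Ppara, 0.693 for Ppargc1b and 0.690 for Nrf1. Of the neighbours in this order, Tfam (4.70 to 5.61 CPM per kb over the libraries) and Gabpa (2.05 to 3.06) did not overlap. The library ranges of every other neighbouring pair did, Esrra (13.2 to 21.5) and Ppargc1a (2.78 to 26.4) included. Ppara rested on only 14 to 114 counts per library and Ppargc1b on 21 to 59, which limits the precision of both. These lengths count all annotated exons, so a gene read mainly from short transcripts is understated.

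**Figure D1:**
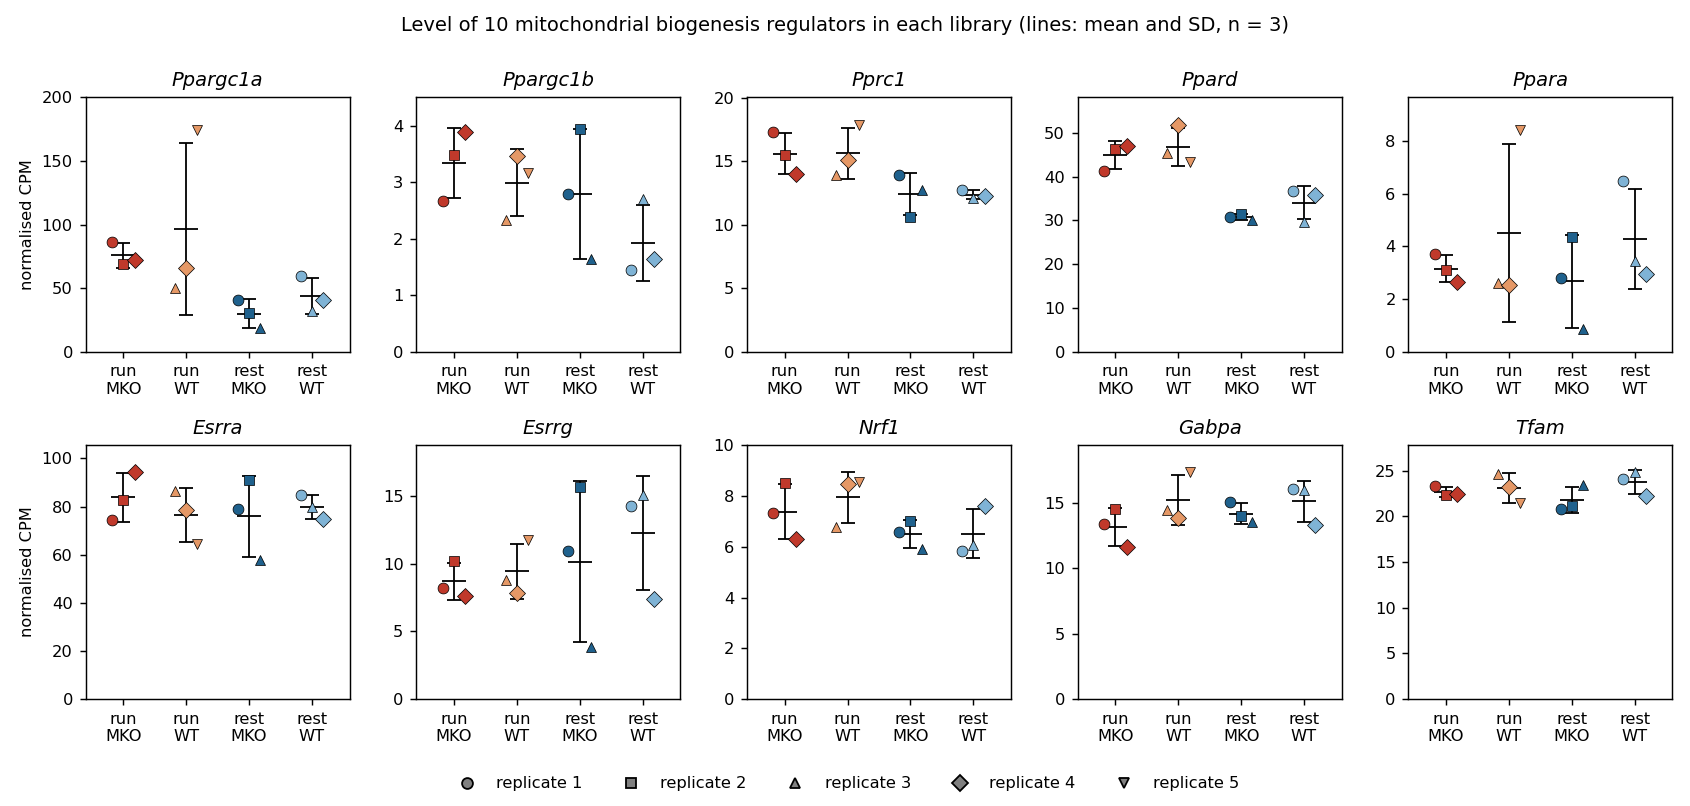
Normalised CPM of the 10 genes in each library, by group; marks are libraries, horizontal lines are group means and bars are SD (n = 3). Ppard is the gene whose 6 exercised libraries (41.2 to 51.8 CPM) all lie above its 6 sedentary libraries (29.7 to 36.8 CPM), while Ppargc1a in exercised WT is spread between 50.2 and 174 CPM.

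Comparing exercised with sedentary muscle asks which of these regulators differ after a single run. Averaged over both genotypes, 3 of the 10 genes passed edgeR's quasi-likelihood test with Benjamini-Hochberg adjustment over all genes tested (adjusted p under 0.05), and all 3 were higher after running. Among all genes tested, 13.6% passed in this comparison and 6.16% passed with a higher level. This average uses the same libraries as the comparisons within MKO and within WT, so it is no separate evidence. The 3 genes were the receptor gene Ppard and the coactivator genes Ppargc1a and Pprc1, and the other 7 did not pass. Because whole muscle was sequenced, more RNA per cell and more cells of a type cannot be told apart in any of these differences. The summed level of 8 fibroblast markers was also lower after running, at 279 to 462 CPM in exercised and 487 to 680 CPM in sedentary libraries. So was the adipocyte sum without Plin4, at 106 to 148 CPM in exercised and 151 to 231 CPM in sedentary libraries. With Plin4 that sum overlapped, and so did Adipoq alone. In WT the summed macrophage markers were at 47.8 to 59.0 CPM in exercised and 74.7 to 107 CPM in sedentary libraries, and overlapped in MKO. In MKO the summed red blood cell markers were at 513 to 836 CPM in exercised and 1357 to 2278 CPM in sedentary libraries, and overlapped in WT. The part of these markers in the results was not tested.

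Ppard encodes PPARδ, the main PPAR receptor of skeletal muscle, which binds fatty acids and drives genes of their oxidation. The gene lies on chromosome 17 (28232700 to 28301474, plus strand, GRCm38). It had 41.2, 46.4 and 47.1 CPM in exercised MKO, against 30.8, 31.4 and 30.1 CPM in sedentary MKO, and 45.3, 51.8 and 43.4 CPM in exercised WT, against 36.8, 29.7 and 35.7 CPM in sedentary WT. Every exercised library lay above every sedentary one, in both genotypes. Across all genes tested, 7.58% separated the 6 exercised from the 6 sedentary libraries in either direction, 3.75% with the exercised libraries higher.

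On the log2 scale Ppard rose by 0.50 ± 0.07 (SE) after running, averaged over the genotypes (edgeR, adjusted p = 0.000667), which is a 1.42-fold difference. That averaged call held under all alternatives listed in the processing summary. Within MKO the difference was 0.54 ± 0.10 (edgeR, adjusted p = 0.0118), and Ppard was the single member of the 10 that passed there, against 4.05% of all genes tested. Within WT it was 0.46 ± 0.10 (edgeR, adjusted p = 0.0162), again the single member that passed, against 8.24% of all genes tested. Leaving out libraries ended some of these calls, with differences between 0.37 and 0.60. The MKO call was lost without replicate 2 of exercised MKO (0.52, edgeR, adjusted p = 0.0553) and without the 3 libraries that stood apart (0.49, edgeR, adjusted p = 0.0797). The WT call was lost without replicate 3 of sedentary WT (0.37, edgeR, adjusted p = 0.0690) or replicate 4 of exercised WT (0.39, edgeR, adjusted p = 0.0642). The MKO and WT responses differed by 0.08 ± 0.15, with a 95% interval of -0.23 to 0.40.

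Ppargc1a encodes PGC-1α, the founding member of the coactivator family and the one most strongly tied to exercise. The gene lies on chromosome 5 (51454250 to 51567726, minus strand). It had 86.6, 68.8 and 71.9 CPM in exercised MKO, against 40.9, 30.4 and 18.3 CPM in sedentary MKO, and 50.2, 65.7 and 174 CPM in exercised WT, against 59.2, 32.0 and 40.3 CPM in sedentary WT. The MKO groups did not overlap, as was so for 21.7% of all genes tested. In WT exercised replicate 3 lay below sedentary replicate 1, and exercised replicate 5 was far above all other libraries.

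Averaged over the genotypes, Ppargc1a rose by 1.24 ± 0.30 on the log2 scale (edgeR, adjusted p = 0.0168), which is a 2.37-fold difference and the largest of the 10. Within a genotype it missed the threshold, at 1.34 ± 0.43 in MKO (edgeR, adjusted p = 0.124) and 1.14 ± 0.42 in WT (edgeR, adjusted p = 0.136). The WT value was 0.40 without replicate 5 of exercised WT, the library with the high Plin4 level (edgeR, adjusted p = 0.556). The averaged value was 0.87 without that library (edgeR, adjusted p = 0.0214) and 0.76 without the 3 libraries that stood apart (edgeR, adjusted p = 0.0300), and it passed both times.

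Pprc1 encodes PRC, a PGC-1-related coactivator that works with NRF1 and is known as an early serum-responsive gene in cultured cells. It lies on chromosome 19 (46044886 to 46072915, plus strand). It had 17.3, 15.5 and 14.0 CPM in exercised MKO, against 13.9, 10.6 and 12.7 CPM in sedentary MKO, and 13.9, 15.1 and 17.8 CPM in exercised WT, against 12.7, 12.1 and 12.3 CPM in sedentary WT. In both genotypes all exercised libraries were above all sedentary ones, although replicate 3 of exercised WT lay just below replicate 1 of sedentary MKO. Among all genes tested, 21.7% did not overlap between the MKO groups and 27.3% did not overlap between the WT groups.

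Pprc1 rose by 0.33 ± 0.09 averaged over the genotypes (edgeR, adjusted p = 0.0267), a 1.26-fold difference. The values within MKO and within WT were close to each other, at 0.33 ± 0.12 (edgeR, adjusted p = 0.214) and 0.34 ± 0.13 (edgeR, adjusted p = 0.136). The averaged call was lost on leaving out any 1 of 6 libraries, namely replicates 1 and 2 of exercised MKO, replicate 5 of exercised WT, replicate 2 of sedentary MKO and replicates 3 and 4 of sedentary WT (0.28 to 0.34, edgeR, adjusted p = 0.0530 to 0.0682). It was also lost when libraries were scaled by total counts alone (0.21, edgeR, adjusted p = 0.159). Pprc1 shares 177 exonic bases with Ldb1 on the opposite strand, which had 13.4 to 18.9 CPM, and no source used here says whether reads were counted by strand.

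The DNA just upstream of the RefSeq starts of these 3 genes is printed because they are the members that rose. The sequences come from RefSeq (GRCm38.p6), read 5′ to 3′ on the gene's strand and and each run stops where the next exon annotated in GENCODE M21 begins. GENCODE M21 also has Pprc1 transcripts that start further upstream, so the Pprc1 run lies within the gene span given above. Capitals mark the letters of a searched motif.
Ppargc1a, chr5:51567727-51567975, minus strand: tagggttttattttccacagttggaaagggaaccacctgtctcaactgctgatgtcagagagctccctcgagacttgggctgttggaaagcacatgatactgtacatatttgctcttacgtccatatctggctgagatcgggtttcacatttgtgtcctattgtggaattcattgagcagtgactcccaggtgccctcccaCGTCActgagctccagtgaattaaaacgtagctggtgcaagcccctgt
Pprc1, chr19:46056289-46056538, plus strand: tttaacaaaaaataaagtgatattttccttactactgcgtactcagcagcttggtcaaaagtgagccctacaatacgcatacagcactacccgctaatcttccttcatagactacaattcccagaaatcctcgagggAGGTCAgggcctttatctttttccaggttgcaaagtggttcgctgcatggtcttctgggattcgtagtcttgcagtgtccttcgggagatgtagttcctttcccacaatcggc
Ppard, chr17:28232504-28232699, plus strand: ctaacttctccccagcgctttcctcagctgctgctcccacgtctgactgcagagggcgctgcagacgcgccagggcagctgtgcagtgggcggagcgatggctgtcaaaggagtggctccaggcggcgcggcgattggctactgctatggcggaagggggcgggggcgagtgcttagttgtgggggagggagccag

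Each window of 250 bases before a RefSeq start was searched on both strands for 6 motifs. Over all 32851 windows of the RefSeq table, the share that held the motif was 1.55% for the CRE (TGACGTCA), 17.8% for the CRE core contained in it (TGACG), 0.387% for an extended ERR motif (TCAAGGTCA), 14% for the nuclear receptor core contained in that (AGGTCA), 2.26% for an NRF1 motif (GCATGCGC) and 2.88% for a GABP motif (CCGGAAGT). The Ppargc1a window held a CRE core on the opposite strand, printed above as CGTCA, the Pprc1 window held a nuclear receptor core, and the Ppard window held none of the 6. Of the other members with a window, Esrra held the NRF1 motif, Tfam the GABP motif and Ppara a CRE core and the NRF1 motif. The windows of Esrrg, Nrf1 and Gabpa held none. A match here describes letters in a window and says nothing about binding. The counts sum over all transcripts of a gene, so they cannot show which start was used.

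**Figure D2:**
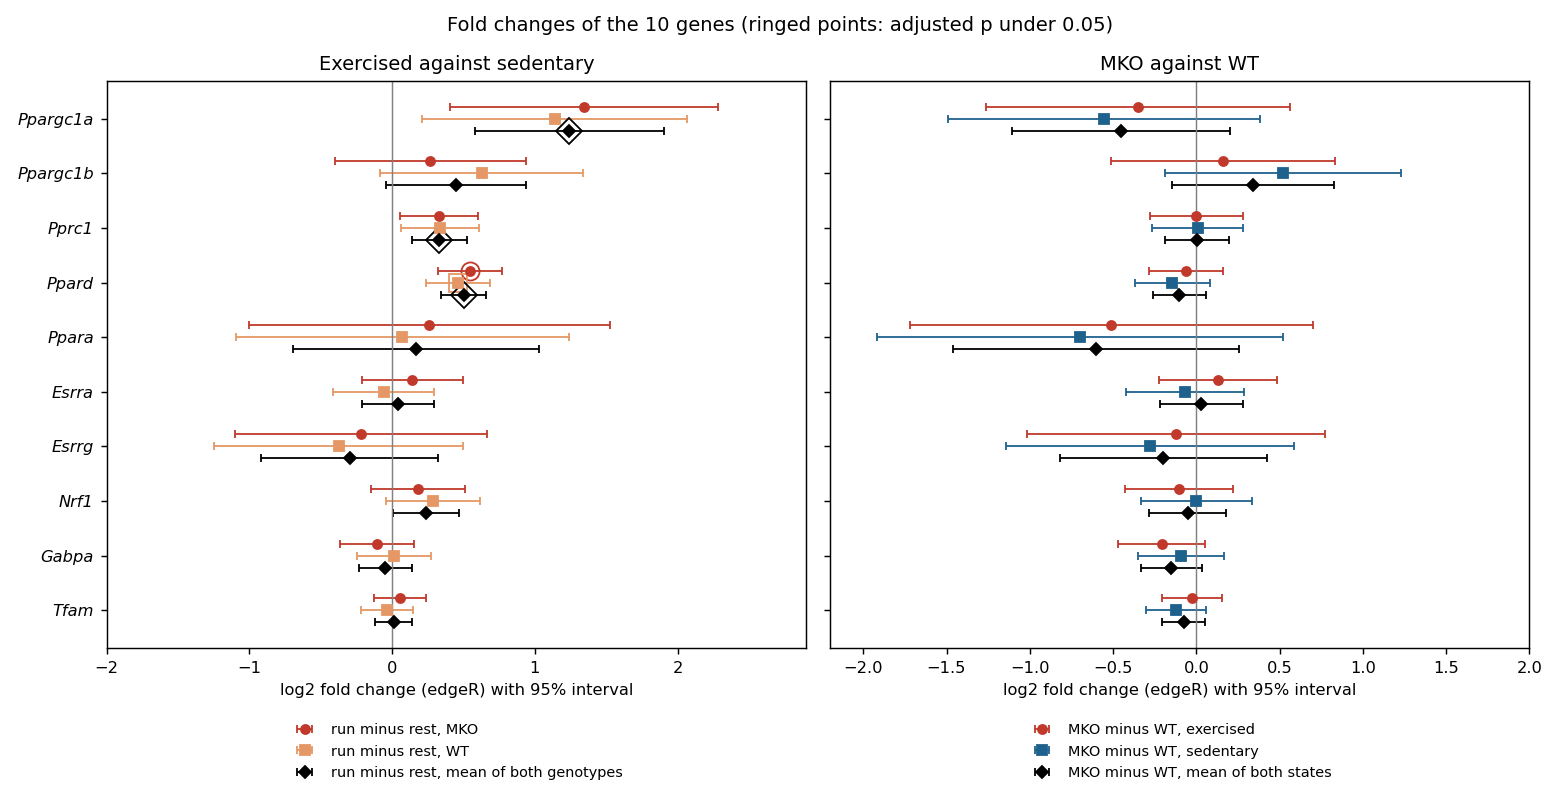
Log2 fold changes of the 10 genes from edgeR with 95% intervals, for exercised against sedentary muscle (left) and MKO against WT (right); ringed points passed at adjusted p under 0.05. Ppard is ringed in all 3 exercise comparisons, Ppargc1a and Pprc1 only in the average over genotypes, and no gene is ringed for genotype.

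The remaining coactivator gene, Ppargc1b, encodes PGC-1β, which is known for basal mitochondrial content rather than for an acute response to exercise. It lies on chromosome 18 (61298136 to 61400431, minus strand). It had 2.67, 3.48 and 3.88 CPM in exercised MKO, against 2.80, 3.94 and 1.63 CPM in sedentary MKO, and 2.34, 3.47 and 3.17 CPM in exercised WT, against 1.44, 2.70 and 1.65 CPM in sedentary WT. The groups overlapped in both genotypes. The averaged difference was 0.45 ± 0.22 on the log2 scale (edgeR, adjusted p = 0.240), with a 95% interval of -0.04 to 0.94.

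The receptor gene Ppara encodes PPARα, a fatty acid sensor most prominent in liver and oxidative tissue. It lies on chromosome 15 (85734983 to 85802819, plus strand). It had 3.70, 3.11 and 2.66 CPM in exercised MKO, against 2.80, 4.34 and 0.847 CPM in sedentary MKO, and 2.62, 2.51 and 8.41 CPM in exercised WT, against 6.46, 3.44 and 2.95 CPM in sedentary WT. The highest library was replicate 5 of exercised WT and the lowest replicate 3 of sedentary MKO, both among the libraries that stood apart. The averaged exercise difference was 0.17 ± 0.39, with an interval of -0.69 to 1.03.

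Esrra encodes ERRα, an orphan receptor that carries much of the PGC-1α effect on oxidative genes, and was the most abundant of the 10 per kilobase. It lies on chromosome 19 (6910977 to 6921813, minus strand). It had 74.2, 82.8 and 94.3 CPM in exercised MKO, against 78.8, 91.2 and 57.9 CPM in sedentary MKO, and 86.4, 78.7 and 64.5 CPM in exercised WT, against 84.7, 79.7 and 74.8 CPM in sedentary WT. All 4 groups overlapped. The averaged exercise difference was 0.04 ± 0.11 with a 95% interval of -0.21 to 0.29. Esrra shares 73 exonic bases with Trmt112 on the opposite strand.

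Esrrg encodes ERRγ, a receptor enriched in slow, oxidative fibres. It lies on chromosome 1 (187608791 to 188214885, plus strand). It had 8.22, 10.2 and 7.62 CPM in exercised MKO, against 10.9, 15.6 and 3.87 CPM in sedentary MKO, and 8.78, 7.83 and 11.7 CPM in exercised WT, against 14.3, 15.04 and 7.41 CPM in sedentary WT. The 2 lowest libraries were replicate 3 of sedentary MKO and replicate 4 of sedentary WT, which also had the 2 lowest slow-fibre sums, 130 and 609 CPM, and the part of fibre content in this was not tested. The averaged exercise difference was -0.30 ± 0.28 (edgeR, adjusted p = 0.581).

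**Figure D3:**
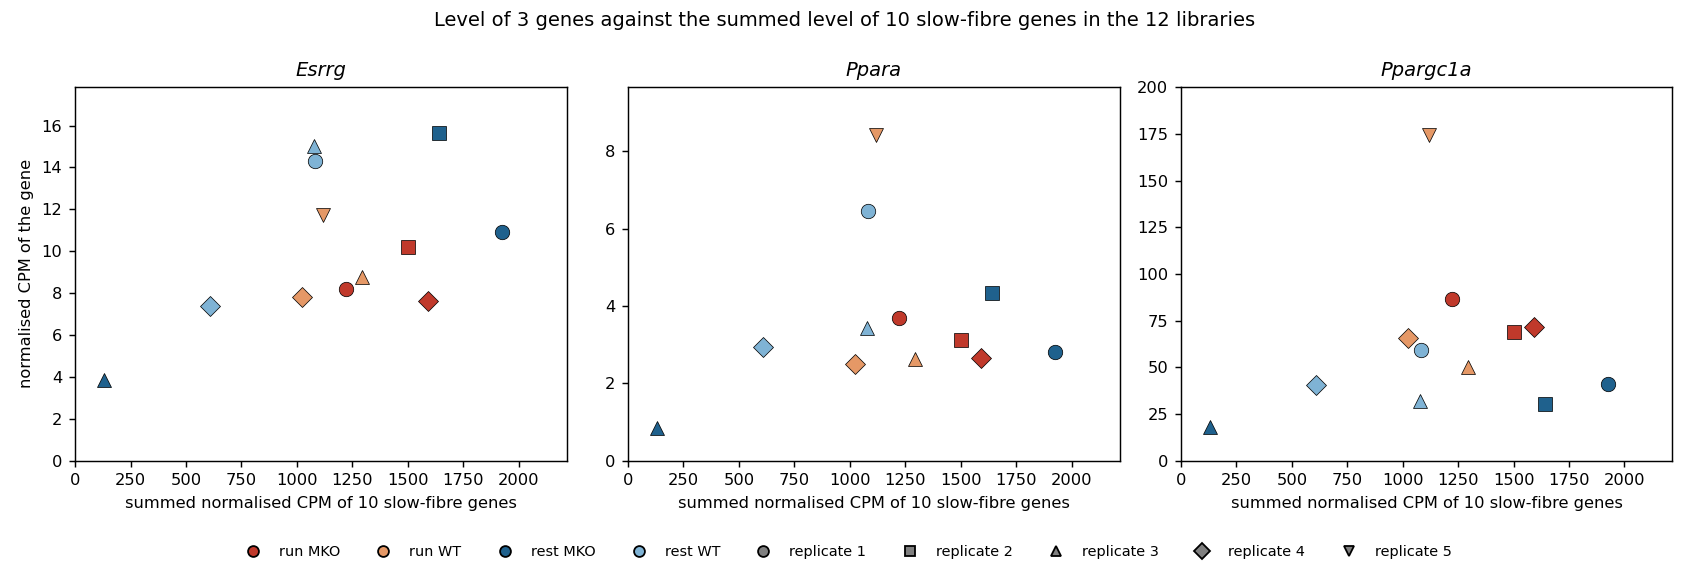
Normalised CPM of Esrrg, Ppara and Ppargc1a (vertical) against the summed normalised CPM of 10 slow-fibre genes (horizontal) in the 12 libraries; colours are groups and shapes are replicate numbers. Replicate 3 of sedentary MKO, at a slow-fibre sum of 130 CPM, has the lowest level of all 3 genes, and replicate 5 of exercised WT has the highest Ppara and Ppargc1a at a slow-fibre sum of 1118 CPM.

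None of the 3 transcription factor genes passed. Nrf1, whose protein switches on nuclear genes of the respiratory chain, had 7.33, 8.52 and 6.32 CPM in exercised MKO, against 6.60, 7.02 and 5.93 CPM in sedentary MKO, and 6.80, 8.50 and 8.55 CPM in exercised WT, against 5.84, 6.07 and 7.61 CPM in sedentary WT. The groups overlapped, and the averaged difference of 0.24 ± 0.11 did not pass (edgeR, adjusted p = 0.187). Gabpa, which encodes the DNA-binding subunit of GABP, had 13.4, 14.5 and 11.6 CPM in exercised MKO, against 15.1, 14.0 and 13.5 CPM in sedentary MKO, and 14.4, 13.9 and 17.4 CPM in exercised WT, against 16.1, 16.0 and 13.3 CPM in sedentary WT. Its averaged difference was -0.05 ± 0.08, with a 95% interval of -0.23 to 0.14. Gabpa shares 397 exonic bases with Atp5j on the opposite strand (227 to 357 CPM), and if reads were counted without strand those of the pair cannot be told apart there.

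Tfam, whose protein packages and transcribes mitochondrial DNA and is a downstream target of NRF1 and GABP, varied least of the 10 between libraries relative to its level. It had 23.4, 22.4 and 22.4 CPM in exercised MKO, against 20.9, 21.1 and 23.5 CPM in sedentary MKO, and 24.7, 23.3 and 21.5 CPM in exercised WT, against 24.1, 24.9 and 22.3 CPM in sedentary WT. The ranges overlapped between all groups. The averaged exercise difference was 0.01 ± 0.06, with a 95% interval of -0.12 to 0.14.

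Comparing MKO with WT asks whether loss of cellular Feimin bears on these regulators. None of the 10 passed in edgeR's test after the run, at rest or averaged over both states. Among all genes tested 0.0345% passed after the run, 0.0069% at rest and 0.0138% in the average, and 16%, 3.76% and 15.5% had an unadjusted p under 0.05 there. The log2 differences of the 10 lay between -0.51 and 0.16 after the run and between -0.70 and 0.52 at rest. The 10 likewise had 0 calls under DESeq2 and limma-voom. Among all 14486 genes tested, DESeq2 called 95 after the run, 3 at rest and 139 in the average. For limma-voom these counts were 6, 3 and 10. In edgeR's test without replicate 2 of exercised MKO, 108 genes passed after the run and 163 in the average. The number of genotype calls over all genes therefore depended on the tool and on single libraries.

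The widest genotype differences belonged to Ppara, Ppargc1a and Ppargc1b. Averaged over the states, MKO minus WT was -0.60 ± 0.39, -0.45 ± 0.30 and 0.34 ± 0.22 for these in turn (edgeR, adjusted p = 0.470, 0.474 and 0.473). Without the 3 libraries that stood apart the sign turned for Ppara, to 0.074, and for Ppargc1a, to 0.062. For Tfam the interval of the averaged genotype difference was -0.20 to 0.05, for Ppard it was -0.26 to 0.06, for Pprc1 -0.19 to 0.20 and for Esrra -0.22 to 0.28.

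The difference between the MKO and WT responses to running was tested directly. None of the 10 passed, nor did any other gene in edgeR's test (0% of all genes tested), although 534 genes, 3.69%, had an unadjusted p under 0.05, and DESeq2 called 3 genes and limma-voom 4. The value for each of the 10 lay within 1 SE of 0, between -0.36 and 0.20. The interval for Ppargc1a ran from -1.10 to 1.51, so a difference of 1 on the log2 scale in either direction lies inside it. Both responses are measured against sedentary groups with their own libraries, so no library is shared between them.

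Partner and cofactor genes of the family came from a list of 22 genes that held RXR receptors, corepressors and coactivators. In MKO 1 passed and in WT 2 passed, all higher after running, and averaged over the genotypes 3 passed. These shares are near those of all genes tested, of which 4.05% passed in MKO, 8.24% in WT and 13.6% in the average. The median log2 difference over the list was -0.01 in the average, against 0.00 over all genes tested. Nrip1, which encodes RIP140, a corepressor known to oppose PGC-1α, averaged 37.0 ± 6.8 CPM in exercised MKO and 27.5 ± 7.7 CPM in sedentary MKO, and 60.3 ± 13.6 CPM in exercised WT and 30.5 ± 5.9 CPM in sedentary WT (SD, n = 3 each).

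Nrip1 rose by 0.98 ± 0.23 in WT (edgeR, adjusted p = 0.0203) and had 0.42 ± 0.23 in MKO (edgeR, adjusted p = 0.446), and the difference between those responses was -0.56 ± 0.32 and did not pass (edgeR, adjusted p = 0.983). The WT call of Nrip1 was lost without replicate 3 of sedentary WT (0.91, edgeR, adjusted p = 0.0878), replicate 4 of sedentary WT (0.91, edgeR, adjusted p = 0.0797), replicate 5 of exercised WT (0.78, edgeR, adjusted p = 0.0808) or the 3 libraries that stood apart (0.78, edgeR, adjusted p = 0.0542). Scaling by total counts alone gave 3 calls of the list in WT. The coactivator gene Ncoa3 passed in the average alone, at 0.30 ± 0.08 (edgeR, adjusted p = 0.0326), and shares 154 exonic bases with Sulf2. Pparg, the receptor of adipocytes, had 0.26 in the average and did not pass (edgeR, adjusted p = 0.542).

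Upstream regulators were a list of 22 kinases, deacetylases and transcription factors known to act on Ppargc1a, of which 21 were tested. Stk11, which encodes LKB1, the kinase that activates AMPK, passed in both genotypes and was the single gene of the list that did, against 4.05% of all genes tested in MKO and 8.24% in WT. It averaged 130.9 ± 16.7 CPM in exercised MKO and 83.1 ± 4.3 CPM in sedentary MKO, and 170.1 ± 11.1 CPM in exercised WT and 81.6 ± 5.0 CPM in sedentary WT (SD, n = 3 each). It rose by 0.66 ± 0.11 in MKO (edgeR, adjusted p = 0.00472) and by 1.06 ± 0.11 in WT (edgeR, adjusted p = 0.000116), and it shares 232 exonic bases with Cbarp. In the average over genotypes 3 of the 21 passed, near the 13.6% of all genes tested. Mef2c, a transcription factor that binds the Ppargc1a promoter, rose by 0.22 ± 0.06 (edgeR, adjusted p = 0.0449), and Prkaa1, which encodes the AMPK α1 subunit, fell by 0.25 (-0.25 ± 0.06, edgeR, adjusted p = 0.0244). On leaving out replicate 1 or 2 of exercised MKO, replicate 3 of exercised WT or replicate 1 of sedentary MKO, 1 gene of the list passed in the average rather than 3. Creb1, Crtc2 and Prkaa2, which encode CREB, its coactivator and AMPK α2, had 0.09, -0.03 and 0.01 in the average and did not pass.

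PPAR target genes were followed as a list of 25 genes of fatty acid handling, although many of them respond to other factors as well. In MKO 1 fell and 0 rose, against 4.05% of all genes tested that passed in either direction, with 13 positive and 12 negative values and a median log2 difference of 0.00 (-0.14 under scaling by total counts alone). In WT 6 fell and 0 rose, against 8.24% of all genes tested that passed in either direction, with 24 of 25 values negative and a median of -0.34, against -0.01 over all genes tested. Averaged over the genotypes 8 of 25 fell and 0 rose, against 13.6% of all genes tested that passed in either direction. The median there was -0.22, with 20 of 25 values negative. So Ppard, the muscle PPAR gene, was higher after running while the genes of this list that passed were lower.

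Pdk4, the kinase gene that restrains pyruvate oxidation, averaged 335.5 ± 87.3 CPM in exercised MKO and 1083 ± 189 CPM in sedentary MKO, and 215.5 ± 75.0 CPM in exercised WT and 1409 ± 238 CPM in sedentary WT (SD, n = 3 each). It fell by 1.69 in MKO (-1.69 ± 0.26, edgeR, adjusted p = 0.00369) and by 2.71 in WT (-2.71 ± 0.27, edgeR, adjusted p = 0.000105). Angptl4, which encodes an inhibitor of lipoprotein lipase, averaged 6.36 ± 4.07 CPM in exercised MKO and 22.9 ± 10.1 CPM in sedentary MKO, and 2.68 ± 0.60 CPM in exercised WT and 26.2 ± 13.1 CPM in sedentary WT (SD, n = 3 each). It fell by 3.29 in WT (-3.29 ± 0.55, edgeR, adjusted p = 0.00311), and its -1.85 ± 0.49 in MKO missed the threshold (edgeR, adjusted p = 0.0638).

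The acyl-CoA thioesterase genes Acot1 and Acot2 fell in WT by 1.74 (-1.74 ± 0.31, edgeR, adjusted p = 0.00446) and by 1.58 (-1.58 ± 0.30, edgeR, adjusted p = 0.00626). In MKO they had -0.59 ± 0.31 and -0.37 ± 0.30 and did not pass (edgeR, adjusted p = 0.426 and 0.637). These paralogs are near-identical in sequence, so the split of reads between them is uncertain. Ucp3, a carrier of the inner mitochondrial membrane, passed in the average over genotypes, in which it fell by 0.63 (-0.63 ± 0.12, edgeR, adjusted p = 0.00385).

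The MKO minus WT difference between the responses was positive for 24 of the 25 genes, with a median of 0.33, but 0 passed in edgeR's test. Single libraries set much of that median. It was 0.11 on leaving out replicate 3 of sedentary MKO and 0.14 on leaving out replicate 3 of sedentary WT. The median in MKO itself was -0.26, with 24 of 25 values negative, without replicate 3 of sedentary MKO, the library with the low slow-fibre sum. The median in WT was -0.14, with 18 of 25 negative, without replicate 3 of sedentary WT.

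**Figure D4:**
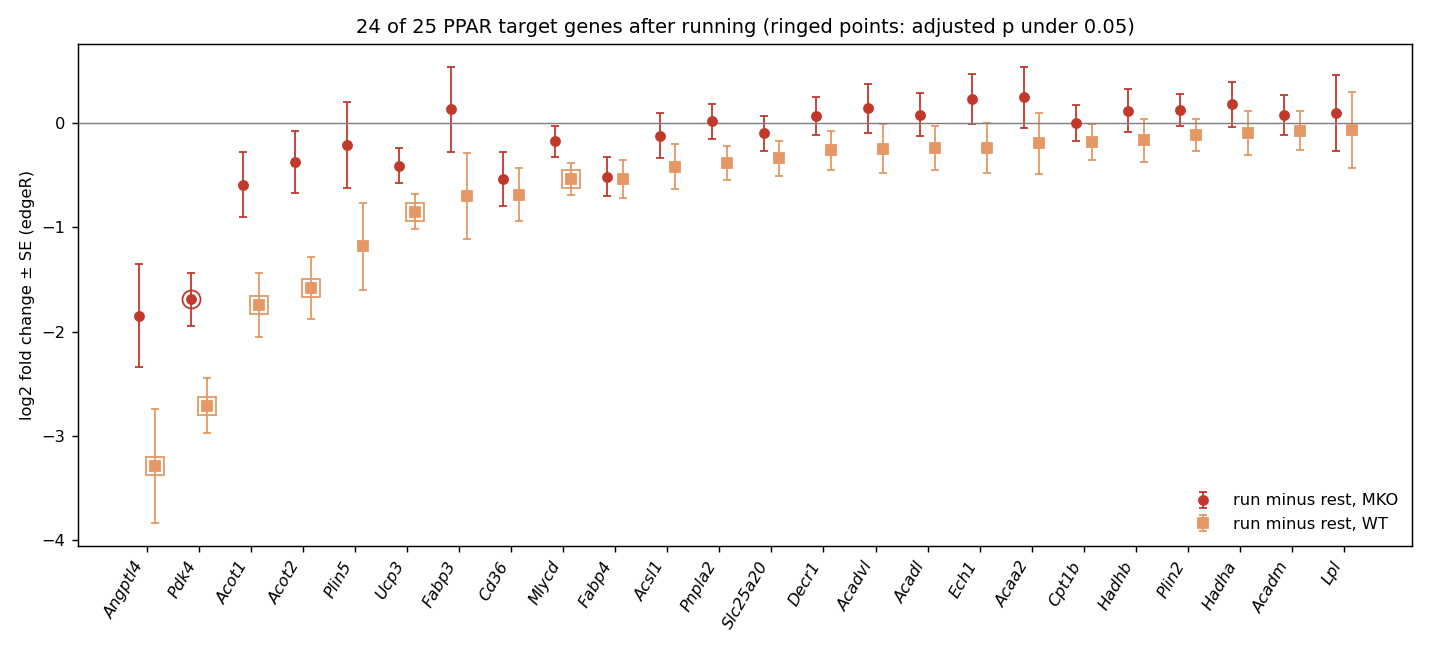
Log2 fold change after running of 24 of the 25 PPAR target genes, with SE from edgeR, in MKO (circles) and WT (squares), ordered by the WT value; ringed points passed at adjusted p under 0.05. Pdk4 is ringed in MKO, 6 genes are ringed in WT, and the 24 plotted WT values lie below 0, while 13 of the plotted MKO values lie above it.

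ERR target genes were a list of 15, mostly genes of citric acid cycle enzymes, carriers and other mitochondrial proteins. In each exercise comparison 0 of 15 were called, against 4.05% of all genes tested in MKO, 8.24% in WT and 13.6% in the average. The median log2 difference was 0.19 in MKO, with 15 of 15 values positive, and 0.00 in WT, with 9 positive, which became 0.05 with 10 positive in MKO and -0.09 with 3 positive in WT under scaling by total counts alone. Without replicate 3 of sedentary MKO the MKO median was 0.00, with 7 positive. Genes of mitochondrial DNA upkeep and transcription, of which 17 of 18 were tested, had 0 calls in MKO and in WT. With lists this short, 0 calls is near the shares of all genes tested, 4.05% in MKO and 8.24% in WT. Averaged over the genotypes Twnk, the gene of the mitochondrial DNA helicase, fell by 0.23 (-0.23 ± 0.06, edgeR, adjusted p = 0.0258), a call that was lost without any of 7 single libraries, and it shares 507 exonic bases with Mrpl43. The genes of the mitochondrial RNA polymerase, Polrmt, and of its partner Tfb2m had -0.07 and 0.06 and did not pass.

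Finally, the genes whose level followed each regulator most closely over the 12 libraries were listed, among 13043 genes of at least 1 CPM, by Pearson's r of log2 CPM. The libraries share exercise state, depth and tissue makeup, so these values describe likeness only. For Ppard the 3 most like genes were Thop1 (r = 0.975), Map7d1 (0.953) and Zfp410 (0.951). For Ppargc1a they were Mcam (0.954), Kdm4a (0.945) and Luzp1 (0.929), and for Pprc1 Cttnbp2nl (0.917), Mgat4a (0.902) and Myh9 (0.901). For Esrra they were Atp5o (0.944), Cox5a (0.937) and Prdx5 (0.937), of which the first and second encode subunits of ATP synthase and cytochrome c oxidase. For Esrrg they were Immt (0.961), which encodes the mitochondrial inner membrane protein mitofilin, Ddo (0.926) and Mgst1 (0.919).

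For Ppara the most like genes were Cth (0.935), Wfs1 (0.904) and Pard3b (0.903), and for Gabpa Taf7 (0.961), Hbp1 (0.928) and Slc9a8 (0.909). For Ppargc1b they were Dhrs11 (0.888), Tstd3 (0.861) and Acp6 (0.852), for Nrf1 Arhgap23 (0.908), Kiz (0.902) and Cwc27 (0.895), and for Tfam Lrp2bp (0.870), Bcl7b (0.842) and Dr1 (0.815). Among the members themselves, the closest pairs were Ppargc1a with Pprc1 (r = 0.820), Esrrg with Ppara (0.802) and Ppargc1a with Ppard (0.723). After the group means were removed, r was 0.618 for Ppargc1a with Pprc1, 0.832 for Esrrg with Ppara and -0.02 for Ppargc1a with Ppard, and the highest value of all pairs was then 0.852 for Ppargc1a with Ppara (0.683 before). So Ppargc1a and Ppard were alike in group level but not in how libraries varied within groups. For both Ppargc1a and Ppara, replicate 5 of exercised WT was the highest library and replicate 3 of sedentary MKO the lowest. Both are among the libraries that stood apart. The lowest value after removal of the group means was -0.729, for Ppargc1a with Tfam.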

How the data were processed

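The authors deposited raw read counts for Ensembl genes, 1 column per library. The submitters' processing notes name HISAT2 2.2.1, SAMtools 1.9, StringTie 2.1.4, FastQC 0.12.1, R 4.3 and DESeq2 1.40.2. No source used here names the counting tool, its use of strand or its annotation. Symbols came from GENCODE M21 (GRCm38.p6). Counts were fitted with edgeR 4.0.16 in R 4.3.3: filterByExpr (minimum count 10, total 15), TMM scaling and a quasi-likelihood model of 4 group means over 12 libraries (8 residual degrees of freedom, biological coefficient of variation 15.3%). The threshold was a Benjamini-Hochberg adjusted p of 0.05. Log2 CPM used a prior count of 2. Standard errors derive from the F statistic. The fit was tested on simulated data.

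The members and lists were chosen with earlier results of these data known. All members were named, and up to 4 genes per list and comparison by smallest p; Pparg, Creb1, Crtc2, Prkaa2, Polrmt and Tfb2m were named for their role after their values were seen. The 3 libraries left out together were picked from earlier results. Alternatives were DESeq2 1.42.0, limma-voom 3.58.1, other scalings and filters, a replicate block and each library left out. A misspelt column was assigned to replicate 4 of exercised MKO, which no other column fits. The labels mention 18 libraries. The count table holds 12, all of which were used, and the replicate numbers have gaps in some groups. No 2 libraries of the same group were duplicates, and pairs from different groups were not checked for this. Prmt1 and Mterf1a were not analysed here. In the lists, 2 further genes are counted but not reported by name here.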

Additional observations from a re-analysis of the deposited data

How the results depend on the processing

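Across the alternatives for single members (differences larger than their own SE), 448 values kept their direction and side of the threshold, 13 lost a call, 2 gained one and 2 changed sign. Most of the 448 had no call to lose. The main fit called only Ppard, in each exercise comparison, and Ppargc1a and Pprc1, in the average. The 13 lost calls were all of Ppard or Pprc1. The count of members called in WT was 2 with the replicate number as a block and 0 to 1 on leaving out single libraries (0 without replicate 3 of sedentary WT or replicate 4 of exercised WT). In MKO it was 0 without the 3 libraries that stood apart and 0 to 1 on leaving out single libraries (0 without replicate 2 of exercised MKO). Averaged over the genotypes it was 2 or 3 under every alternative. The count of members called for genotype and for the difference between responses was 0 under every alternative run. The 2 changes of sign were the averaged MKO minus WT values of Ppargc1a (0.062) and Ppara (0.074) without the 3 libraries that stood apart. The cause was not tested. Deviations of same-numbered libraries correlated at -0.153 to 0.0759, so no strong pairing by replicate number was seen. Differently numbered libraries were not compared in this way, and a shared litter, day or batch was not tested. Replicate number 5 occurs in exercised WT alone, so a block by number fits that library exactly and takes it out of the comparisons. Leaving out that library without a block gave 0.40 for Ppargc1a in WT (edgeR, adjusted p = 0.556). With the number as a block Ppargc1a passed in WT (0.67, edgeR, adjusted p = 0.0270) and in MKO (1.25, edgeR, adjusted p = 0.00501), Ppard missed in MKO (0.47, edgeR, adjusted p = 0.0526), Pprc1 missed in the average (0.31, edgeR, adjusted p = 0.0562), Nrip1 missed in WT (0.85, edgeR, adjusted p = 0.142), and 2 rather than 6 PPAR target genes passed in WT. Scaling by total counts alone moved the median of all genes by -0.15 in MKO and -0.10 in WT. The 14 to 114 counts of Ppara and 21 to 59 of Ppargc1b per library, and the spread of Ppargc1a in exercised WT, limit what could be detected. With 3 libraries a group, intervals stay wide.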
